A study of Homo sapiens with 4 samples.

Results

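The 9 genes described here set the pace of glycolysis at the step where fructose-6-phosphate becomes fructose-1,6-bisphosphate. They are the phosphofructokinases PFKL, PFKM and PFKP, the bifunctional regulators PFKFB1, PFKFB2, PFKFB3 and PFKFB4, and the opposing phosphatases TIGAR and FBP1. They were chosen by symbol, with earlier results for PFKFB4 in view. Each was measured by 1 probe set, so that 9 of 21448 probe sets on the array belong to them. The platform annotation named 8 of the probe sets. The probe set of PFKFB4 is not listed there and took its name from an entry of the study's supplementary list of altered genes, where PFKFB4 stands together with MIR6823, a microRNA gene that lies inside PFKFB4 in the RefSeq gene table. The mature microRNA was not measured.

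The cells were Jurkat, a long-established leukemia line derived from human T lymphoblasts, and their RNA was read on 4 human Clariom S arrays, 1 for each sample. The 2 ORM samples were cells that had made 1 round of migration through 3 μm pores within 24 h and were taken from the lower chamber of a Transwell insert. The 2 control samples were Jurkat cells that had not migrated, which the sample labels give as a normal suspension culture and the series design as cells collected from the insert. Both groups came from cultures in RPMI with fetal bovine serum and carried no added gene or drug. The paper's Transwell migration method loads cells in serum-free RPMI above RPMI with serum. Exposure to serum during the 24 h may therefore have differed between the groups. All arrays come from a single cell line, and the free-text description of several samples does not match their titles, so the groups follow title and source. The labels call the replicates biological without saying what separated them, so the spread given here is that between arrays of a group.

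Phosphofructokinase commits sugar to glycolysis, and its strongest activator is fructose-2,6-bisphosphate. The PFKFB enzymes make this activator with a kinase domain and break it down with a phosphatase domain, and the isoforms differ in the balance of both activities and in the tissues that express them. TIGAR, a target of p53, lowers fructose-2,6-bisphosphate and is known for turning glucose toward the pentose phosphate pathway. FBP1 runs the phosphofructokinase step backward in gluconeogenesis. PFKFB3 and PFKFB4 are known hypoxia-induced genes, and proliferating T cells and T-cell leukemias depend strongly on glycolysis.

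Values are log2 signals per probe set, so that a difference of 1 means a doubling. Because the signal of a probe set also depends on its probes, levels are compared between arrays and not between genes. On the arrays the median log2 signal lay at 5.97 and 5.96 in ORM cells and at 6.04 and 6 in control cells. The control arrays differed more from each other than the ORM arrays did. Over all probe sets the difference, replicate 2 minus replicate 1, had an SD of 0.248 for ORM arrays and 0.404 for control arrays. Differences between ORM and control cells are therefore also given against single control arrays. Without control replicate 2 they are the ORM mean minus control replicate 1. The spread between 2 control arrays does not show which of them is the more typical. T-cell markers gave log2 signals of 5.29 to 11.66, with 10 of 11 above the upper quartile and CD2 the dimmest, and their summed log2 signal was 104.1 to 104.6 in ORM cells and 104.3 to 104.5 in control cells. Of the markers of other cell types (B, myeloid and erythroid cells, epithelium and fibroblasts), CD79A was the only one above the upper quartile on all 4 arrays, at 9.69 and 9.90 in ORM cells and 10.06 and 10.25 in control cells. COL1A2 was above it on both control arrays (7.66 and 7.71) and KRT8 on control replicate 2 (7.93).

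The promoters of the 3 genes that differed most between the control arrays, PFKFB4, PFKFB3 and TIGAR, are shown because the core letters of the hypoxia response element, ACGTG and GCGTG, were searched in the promoters of all members. Each window runs from 250 bases before to 50 bases after an annotated start of transcription in RefSeq (GRCh38.p14), 5′ to 3′ on the strand of the gene, with matches on either strand in capitals. PFKFB4 has 1 window (chr3:48556754-48557053, minus strand), PFKFB3 has 2 (chr10:6144671-6144970 and chr10:6202682-6202981, both plus strand) and TIGAR has 1 (chr12:4320963-4321262, plus strand).
PFKFB4: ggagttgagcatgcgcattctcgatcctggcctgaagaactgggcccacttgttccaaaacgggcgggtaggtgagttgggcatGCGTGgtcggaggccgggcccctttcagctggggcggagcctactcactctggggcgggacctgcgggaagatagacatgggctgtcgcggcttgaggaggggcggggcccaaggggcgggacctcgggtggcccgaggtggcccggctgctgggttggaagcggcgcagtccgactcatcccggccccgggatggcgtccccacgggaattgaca
PFKFB3 window 1: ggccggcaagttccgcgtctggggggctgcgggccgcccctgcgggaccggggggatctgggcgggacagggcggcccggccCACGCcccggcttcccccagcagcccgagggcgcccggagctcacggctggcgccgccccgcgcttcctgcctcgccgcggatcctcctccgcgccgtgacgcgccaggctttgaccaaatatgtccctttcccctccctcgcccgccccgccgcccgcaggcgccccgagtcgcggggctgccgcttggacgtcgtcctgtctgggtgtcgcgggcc
PFKFB3 window 2: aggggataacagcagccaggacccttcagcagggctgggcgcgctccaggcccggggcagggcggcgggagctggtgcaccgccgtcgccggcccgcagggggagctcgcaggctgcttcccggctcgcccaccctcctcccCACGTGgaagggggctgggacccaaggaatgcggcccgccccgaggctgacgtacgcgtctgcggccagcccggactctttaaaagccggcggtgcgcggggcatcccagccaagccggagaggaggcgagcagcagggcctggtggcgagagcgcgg
TIGAR: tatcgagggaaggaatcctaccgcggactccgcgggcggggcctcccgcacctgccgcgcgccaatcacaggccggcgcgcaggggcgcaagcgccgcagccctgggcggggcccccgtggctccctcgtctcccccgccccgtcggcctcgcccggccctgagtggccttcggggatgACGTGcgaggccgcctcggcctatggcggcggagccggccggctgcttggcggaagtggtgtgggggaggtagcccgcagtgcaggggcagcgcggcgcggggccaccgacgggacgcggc

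The PFKFB4 window held 1 GCGTG, centred 164 bases before the start. The first PFKFB3 window held 1 GCGTG on the opposite strand, 166 bases before the start, and the second held ACGTG on both strands, overlapping in the palindrome CACGTG at 106 and 105 bases before the start. The TIGAR window held 1 ACGTG at 69 bases before the start. RefSeq windows were given for 8 of the 9 members, all but PFKFB2, and 10 of their 19 windows held a match. That is 52.6% of the windows, against 48.4% of 35116 windows of all genes (21.4% for ACGTG and 36.5% for GCGTG), so the members' promoters held these letters about as often as promoters in general. Windows 1 and 2 of PFKM overlap and share their match, and neither window of PFKFB1 held one.

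**Figure D1:**
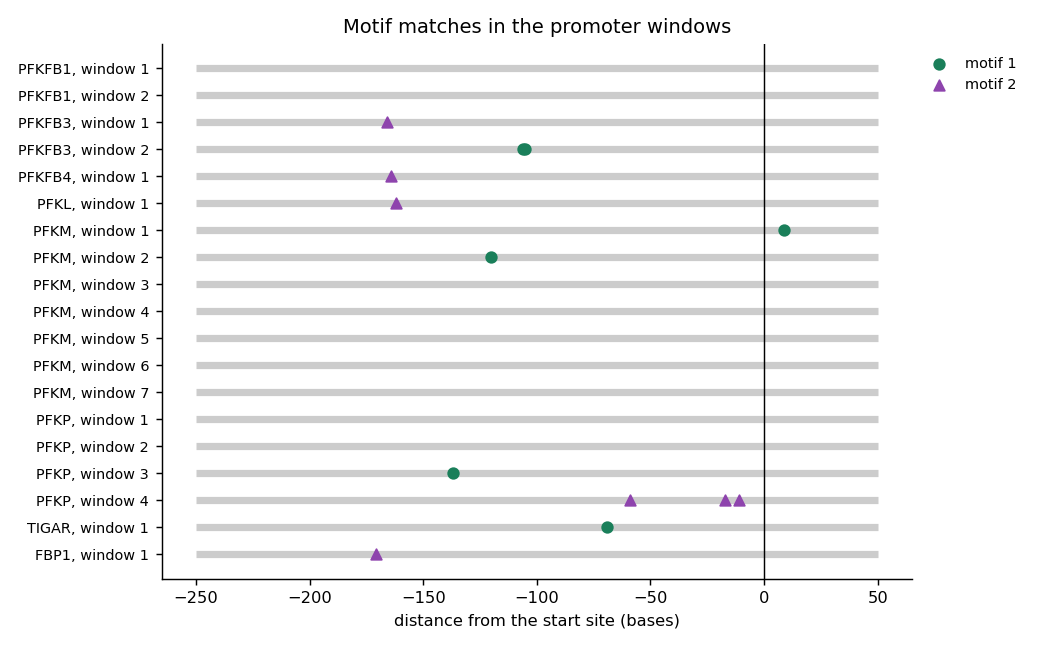
Matches in the 19 promoter windows of 8 members, by distance from the start site in bases (0 is the annotated start, grey bars run from 250 bases before to 50 after it). Circles (motif 1) mark ACGTG and triangles (motif 2) mark GCGTG, on either strand, and 10 windows held at least 1 match.

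Among the bifunctional enzymes, PFKFB4 was the gene with the strongest fall in ORM cells. This isoform is expressed mainly in testis and in many tumours. Its log2 signal was 5.28 and 5.47 in ORM cells, against 6.42 and 8.72 in control cells. Both ORM arrays lay below both control arrays, and the ORM arrays were close to each other while the control arrays were far apart. The means were 5.38 ± 0.13 in ORM cells and 7.57 ± 1.63 in control cells (SD, n = 2 each), a log2 fold change of -2.20 with a limma standard error of 0.66, or a 4.58-fold lower signal. In absolute size this ranked 1 of all 21448 probe sets. Since this contrast was in view when the gene was chosen, its fold change is a description. In bulk RNA, fewer cells that express a gene and less RNA in each cell cannot be told apart.

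The size of the fall in PFKFB4 depended on the control array it was set against. The ORM mean was lower than control replicate 1 by a log2 difference of -1.04, or 2.06-fold, and lower than control replicate 2 by -3.35, or 10.2-fold. Between the control arrays themselves PFKFB4 was 4.92-fold higher in replicate 2 than in replicate 1, a log2 difference of 2.30 that ranked 4 of all probe sets in that direction. The difference between the ORM arrays was 0.19.

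PFKFB3, the isoform with the highest kinase activity relative to phosphatase activity and an activator of glycolysis in proliferating cells, had log2 signals of 6.06 and 6.05 in ORM cells, against 5.72 and 6.86 in control cells. The ORM arrays were nearly equal and fell between the control arrays. The log2 fold change was -0.23 (standard error 0.35). The sign depended on the control array, with the ORM mean at 0.33 above control replicate 1 and at -0.81 against control replicate 2, which was itself 2.20-fold higher than replicate 1.

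PFKFB2, known as the heart isoform and a target of AKT phosphorylation, gave 5.51 and 5.21 in ORM cells and 5.18 and 5.99 in control cells. Both ORM arrays again lay between the control arrays, and the log2 fold change was -0.22 (standard error 0.29). The ORM mean differed by 0.18 from control replicate 1 and by -0.63 from control replicate 2. Control replicate 2 was 1.75-fold above replicate 1, just inside the 1.8-fold limit used for calls.

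PFKFB1, the liver and muscle isoform, was dim in Jurkat cells. Its log2 signals of 3.87 and 3.45 in ORM cells and 3.90 and 3.66 in control cells were below the lower quartile on all 4 arrays, and the groups overlapped. The log2 fold change of -0.12 (standard error 0.21) was smaller than the difference between the ORM arrays, -0.42. The ORM mean was at -0.24 against control replicate 1 and at 0 against control replicate 2. Across the 4 isoforms, control replicate 2 was the highest array for PFKFB2, PFKFB3 and PFKFB4 and an intermediate one for PFKFB1.

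**Figure D2:**
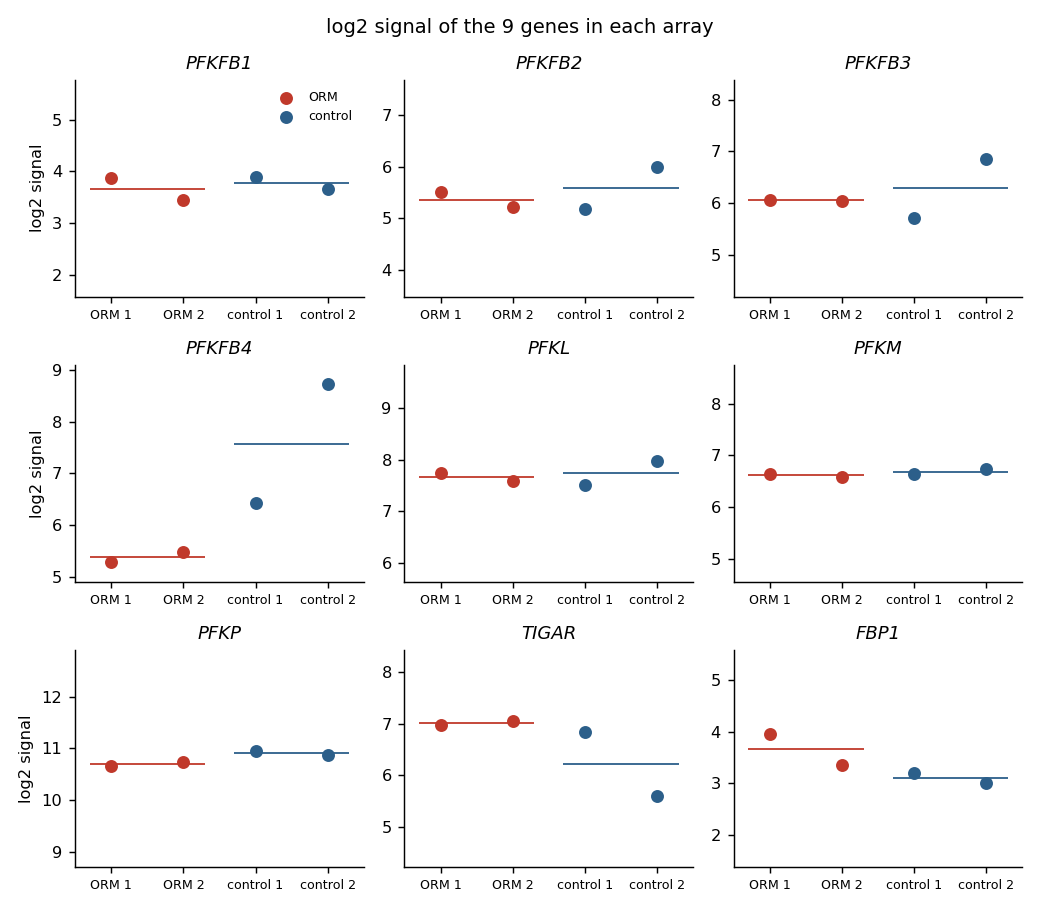
log2 signal (vertical axes, each spanning the same number of log2 units) of the 9 members in the 2 ORM arrays (red, left) and the 2 control arrays (blue, right), 1 point for each array, with a horizontal line at the mean of each group. PFKFB4 is at 5.28 and 5.47 in ORM cells and at 6.42 and 8.72 in control cells, and for PFKFB3 and PFKFB4 control replicate 2 stands above the other 3 arrays.

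The phosphofructokinases that these regulators act on differed little between the groups. PFKP, the platelet isoform, had log2 signals of 10.66 and 10.73 in ORM cells, against 10.95 and 10.88 in control cells. Both ORM arrays were below both control arrays, but by a small step of -0.22 on the log2 scale (standard error 0.16), or 1.16-fold. This step was about the same against control replicate 1, at -0.25, and control replicate 2, at -0.19, and replicate 2 minus replicate 1 was 0.07 in ORM cells and -0.07 in control cells.

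PFKL, the liver isoform, gave 7.74 and 7.59 in ORM cells and 7.50 and 7.97 in control cells. The ORM arrays lay between the control arrays, and the log2 fold change was -0.07 (standard error 0.21). PFKM, the muscle isoform, gave 6.65 and 6.58 in ORM cells and 6.64 and 6.73 in control cells, with overlapping groups and a log2 fold change of -0.07 (standard error 0.16). For PFKL the ORM mean was 0.17 above control replicate 1 and at -0.30 against control replicate 2, and for PFKM the differences were -0.02 and -0.12.

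The opposing phosphatases had higher means in ORM cells. TIGAR had log2 signals of 6.97 and 7.06 in ORM cells, against 6.85 and 5.60 in control cells. The lowest array was control replicate 2, and the other 3 arrays lay within a narrow band. The log2 fold change was 0.79 (standard error 0.38), or 1.73-fold, just under the 1.8-fold limit. Without control replicate 2 it was 0.17, or 1.12-fold, while against control replicate 2 alone the ORM mean was 2.67-fold higher. Control replicate 2 was below control replicate 1 by a log2 difference of -1.25, or 2.38-fold.

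FBP1, best known from liver and kidney, was dim, with all 4 arrays below the lower quartile. Its log2 signals were 3.95 and 3.36 in ORM cells and 3.19 and 3.01 in control cells. The groups did not overlap, but the ORM arrays differed by -0.59 (replicate 2 minus replicate 1), as much as the log2 fold change of 0.56 (standard error 0.23). The ORM mean was 0.47 above control replicate 1 and 0.65 above control replicate 2.

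**Figure D3:**
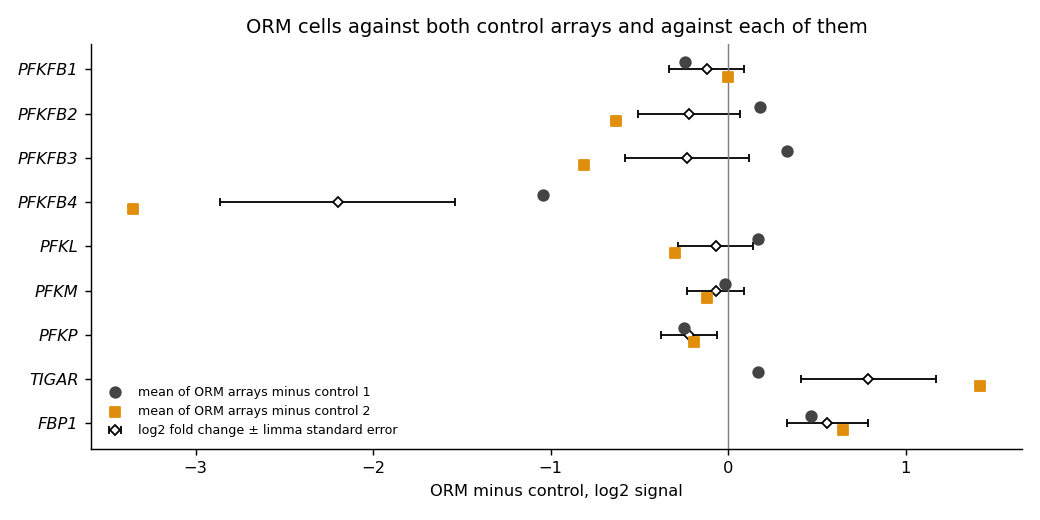
Difference in log2 signal between ORM and control cells for each member (values below 0 are lower in ORM cells). Diamonds show the log2 fold change between the group means with its limma standard error, circles the ORM mean minus control replicate 1 and squares the ORM mean minus control replicate 2. For PFKFB4 the 3 values are -2.20, -1.04 and -3.35, and for PFKFB2, PFKFB3 and PFKL the circle and the square lie on opposite sides of 0.

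Of the 9 members, 1 passed the threshold of the study, a fold change over 1.8 with an unadjusted p under 0.05 in limma, and it was PFKFB4, lower in ORM cells. The same threshold was passed by 0.704% of all probe sets, by 0.28% lower and by 0.424% higher in ORM cells, and nothing is read from the count since the contrast chose the gene. By the methods' t-test, a plain test of each probe set, 0 members passed it. With single arrays left out in limma, PFKFB4 passed without either control array and did not pass without either ORM array. Such a fit leaves 1 array in a group, which is assumed to vary like the other group, so the spread within groups came from the ORM pair (SD 0.13) where it passed and from the control pair (SD 1.63) where it did not. Over all probe sets 2447 had an unadjusted p under 0.05 in limma, and 0 had a Benjamini-Hochberg adjusted p under 0.05, with 0.428 as the lowest. With 2 arrays in each group, the smallest two-sided p of an exact permutation test is 0.333. The groups did not overlap in 4 members (PFKFB4 and PFKP lower, TIGAR and FBP1 higher in ORM cells), or 4 of 9, near the 45.6% of all probe sets whose groups did not overlap.

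Setting the ORM mean against single control arrays gave different members. Against control replicate 1, 1 member (PFKFB4) was past 1.8-fold, as were 0.527% of all probe sets. Against control replicate 2, 2 members (PFKFB4 and TIGAR) were past it, as were 4.89% of all probe sets. PFKFB4 was in view when the genes were chosen, so both counts are a description. In 3 members (PFKFB2, PFKFB3 and PFKL) the ORM mean lay between the control arrays, which held for 34.3% of all probe sets.

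The control arrays were also compared directly, a comparison of 1 array with 1 array that allows no test. Control replicate 2 differed from control replicate 1 by more than 1.8-fold in 3 of 9 members, PFKFB4 and PFKFB3 upward and TIGAR downward, against 4.25% of all probe sets. The genes were chosen with PFKFB4 in view, and its control values are part of the contrast that chose it. Nothing is therefore read from this count. PFKFB4 lay far outside the range of -0.75 to 0.86 that held the central 95% of all probe sets, and TIGAR and PFKFB3 lay outside it as well. PFKFB2 was near the upper edge at 0.81, and PFKL followed at 0.47. The other 4 members stayed close to 0, with PFKM at 0.09, PFKP at -0.07, FBP1 at -0.18 and PFKFB1 at -0.24.

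The ORM arrays differed by more than 1.8-fold in 0 of 9 members, against 0.424% of all probe sets. FBP1, at -0.59, was outside the central range of -0.52 to 0.49 and PFKFB1, at -0.42, was near its edge, and these are the dim members. Control replicate 2 was the highest or lowest of the 4 arrays in 7 of 9 members, against 64.1% of all probe sets. It was the highest array in 5 members (PFKFB2, PFKFB3, PFKFB4, PFKL and PFKM), against 33.3%, and the lowest in TIGAR and FBP1. These counts also include PFKFB4, which was in view when the genes were chosen.

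**Figure D4:**
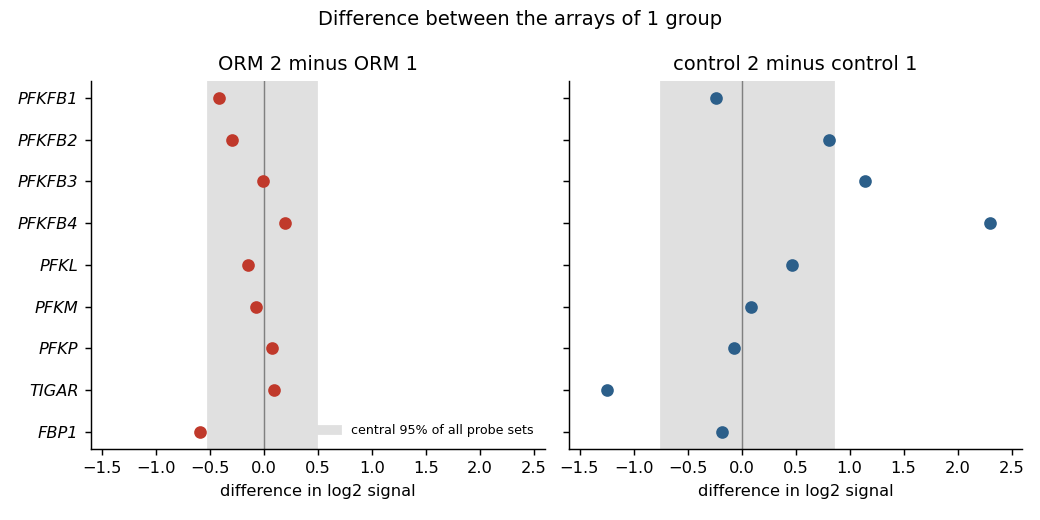
Difference in log2 signal between the arrays of 1 group for each member, with ORM replicate 2 minus replicate 1 on the left and control replicate 2 minus replicate 1 on the right. Grey bands hold the central 95% of all probe sets, -0.52 to 0.49 for ORM and -0.75 to 0.86 for control arrays. PFKFB4, PFKFB3 and TIGAR lie outside the band of the control arrays and FBP1 lies outside that of the ORM arrays.

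None of the other measured glycolysis genes passed the threshold between ORM and control cells. Of 28 listed genes, from the glucose transporters SLC2A1 and SLC2A3 to lactate dehydrogenase, 26 were measured, and 0 passed the threshold in either direction by limma or by the methods' t-test. At an unadjusted p under 0.05 alone, 1 gene was past it by limma and 1 by the methods' t-test. The median log2 fold change was -0.09, against -0.03 over 17687 named genes, and 18 of 26 (69.2%) had a lower mean in ORM cells, against 53.9% of named genes. Without control replicate 2 the median was 0.05, on the other side of 0, and against control replicate 2 alone it was -0.13. The difference farthest from 0 was that of ALDOC, an aldolase, with log2 signals of 6.81 and 7.08 in ORM cells, against 7.13 and 8.64 in control cells. Its groups did not overlap. Its log2 fold change of -0.94 (standard error 0.45), or 1.92-fold, was past the fold limit but not the p limit. The difference was -0.18 without control replicate 2 and -1.70 against control replicate 2 alone. The smallest p belonged to PGAM4, at a log2 fold change of 0.61 (standard error 0.16), a near-identical copy of PGAM1 whose signal is uncertain for that reason, and to PKLR, the liver and red cell pyruvate kinase, at -0.37 (standard error 0.16). Leaving out control replicate 2 gave 0.54 for PGAM4 and -0.47 for PKLR, and against control replicate 2 alone the values were 0.67 and -0.27.

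Between the control arrays, 3 of the 26 glycolysis genes were past 1.8-fold, and all 3 were higher in replicate 2. They were ALDOC with a log2 difference of 1.51, HK2, the inducible hexokinase, with 1.25, and HK1, its constitutive counterpart, with 0.89. These 3 are named after their values were seen. HK2 had log2 signals of 7.85 and 7.96 in ORM cells and 7.57 and 8.82 in control cells, so that the ORM arrays lay between the control arrays as they did for PFKFB3. Control replicate 2 was the highest array in 15 of the 26, or 57.7%, against 32.2% of named genes.

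The pentose phosphate pathway, which TIGAR is known to favour, was represented by 8 of 9 listed genes, and 0 passed the threshold. By limma and by the methods' t-test 0 had an unadjusted p under 0.05. The median log2 fold change was 0.10, or 0.01 without control replicate 2 and 0.13 against control replicate 2 alone. The median difference between control replicate 2 and replicate 1 was -0.15. PGD, which makes ribulose-5-phosphate and NADPH, had the smallest p at a difference of 0.39 on the log2 scale (standard error 0.20), followed by RPIA, ribose-5-phosphate isomerase, at 0.31 (standard error 0.18). Against control replicate 1 alone the difference was 0.19 for PGD and 0.21 for RPIA, and against control replicate 2 alone 0.61 and 0.40. For PGD the log2 signals were 9.06 and 9.25 in ORM cells and 8.97 and 8.55 in control cells, with control replicate 2 lowest, as it was for TIGAR.

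Of 6 gluconeogenesis genes apart from FBP1, all were measured and 0 passed the threshold, with 1 at an unadjusted p under 0.05 by limma (PCK2) and 1 by the methods' t-test. PCK2, the mitochondrial phosphoenolpyruvate carboxykinase, had the smallest p and a difference of -0.66 on the log2 scale (standard error 0.25), and PC, pyruvate carboxylase, followed at 0.55 (standard error 0.29). Both move pyruvate-derived carbon toward phosphoenolpyruvate, and their differences had opposite signs. Without control replicate 2 the difference was -0.49 for PCK2 and 0.13 for PC, and against control replicate 2 alone -0.84 and 0.98. The median of the list was -0.07 with and without control replicate 2, and 0.08, on the other side of 0, against control replicate 2 alone.

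Hypoxia-induced genes other than the PFKFB isoforms separated the control arrays. Of 18 listed genes, 17 were measured, and 12 were higher by more than 1.8-fold in control replicate 2 than in control replicate 1. That is 70.6% of them, against 2.41% of named genes. The median difference was 1.05 on the log2 scale, and control replicate 2 was the highest of the 4 arrays for 16 of the 17, or 94.1%. The exception was ERO1A, a thiol oxidase of the endoplasmic reticulum, with log2 signals of 10.30 and 10.31 in ORM cells and 10.03 and 10.03 in control cells. The list was written with these results known, so its counts are a description.

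In ORM against control cells, 84 of 17687 named genes were past the threshold as higher and 41 as lower. Of the 17 hypoxia-induced genes, 1 was past it. This was BNIP3L, a mitophagy receptor, with log2 signals of 9.71 and 9.74 in ORM cells, against 10.08 and 11.07 in control cells. Its log2 fold change of -0.85 (standard error 0.32) was at the edge of the fold limit. The difference was -0.35 without control replicate 2 and -1.34 against control replicate 2 alone. By the methods' t-test 0 passed. At an unadjusted p under 0.05 alone, 3 were past it by limma and 2 by the methods' t-test. The largest falls in ORM cells, of BNIP3 at -1.30 and PDK1 at -1.20, were past the fold limit but not the p limit. Without control replicate 2 they were -0.36 and -0.08. The median log2 fold change of the list was -0.51, and 16 of 17 genes, all but ERO1A, had a lower mean in ORM cells, against 53.9% of named genes. Without control replicate 2 the median was -0.08, and against control replicate 2 alone it was -1.01. In the same comparisons PFKFB4 gave -1.04 and -3.35.

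**Figure D5:**
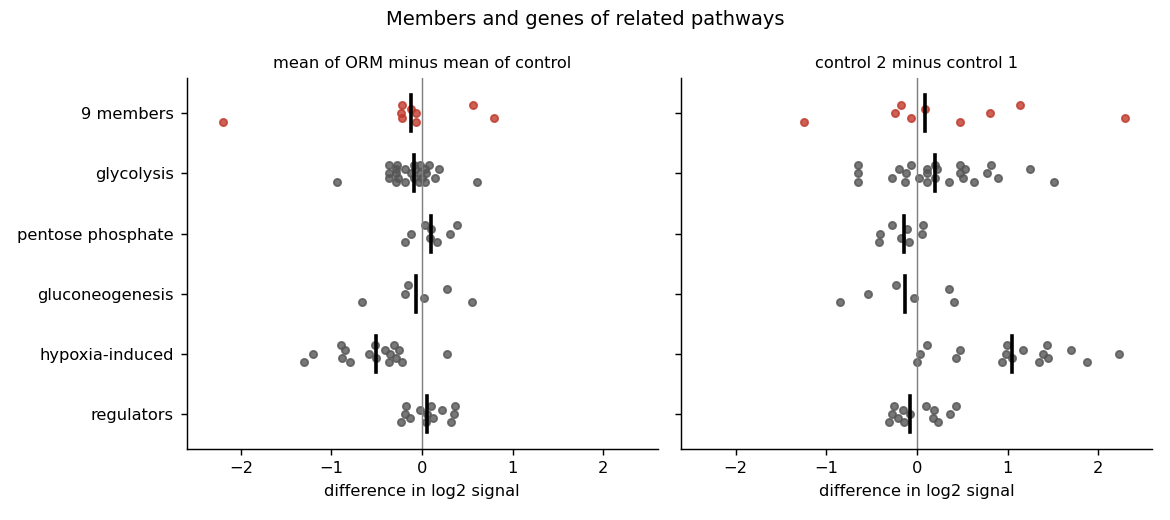
Difference in log2 signal for each of the 9 members (red) and for the measured genes of 5 lists (grey), 1 point for each gene with the list's median as a black bar. The left panel shows ORM minus control means and the right panel control replicate 2 minus control replicate 1, where the hypoxia-induced genes have a median of 1.05 and the glycolysis genes one of 0.20.

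Known regulators of the members, 13 of 14 listed genes that include subunits of the hypoxia-inducible factors and of AMPK as well as MYC and AKT kinases, gave 0 genes past the threshold. By limma 0 and by the methods' t-test 2 had an unadjusted p under 0.05. The smallest p belonged to PRKAG1, a regulatory subunit of AMPK that differed on the log2 scale by 0.36 (standard error 0.16), and AKT2, a kinase of insulin signalling, with 0.32 (standard error 0.16). Leaving out control replicate 2 gave 0.29 for PRKAG1 and 0.25 for AKT2, and against control replicate 2 alone the values were 0.44 and 0.39. The median of the list was 0.05 with and without control replicate 2, and 0.13 against control replicate 2 alone. HIF1A, the hypoxia-regulated transcription factor subunit, named here outside the rule for named genes, had log2 signals of 9.73 and 9.66 in ORM cells and 9.62 and 9.34 in control cells. Its transcript was lowest in control replicate 2, as were 7 of the 13 measured regulators, HIF1A included, and 30.8% of all probe sets. PFKFB4 and most of the hypoxia-induced list were highest on that array. HIF1A protein was not measured, and a cause was not tested.

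Profiles over the 4 arrays were compared with that of PFKFB4 by Euclidean distance between mean-centred log2 signals, using only probe sets with a gene name. The nearest were ARPP21 (distance 0.37, Pearson's r 0.99), BHLHE40 (0.89, r 0.96), BNIP3 (0.94, r 0.99), CHST11 (0.94, r 0.97) and PDK1 (1.03, r 0.95). The probe sets of ARPP21 and CHST11, like that of PFKFB4, are not listed by the platform annotation and took their names from the study's supplementary list. Of the unlisted probe sets, only those with a single symbol in that list of altered genes could enter. Both had therefore passed a filter on the same contrast. For ARPP21 and CHST11, the probe set that the platform names lay farther from PFKFB4, with a distance of 2.29 (r 0.83) for ARPP21 and 2.71 (r 0.22) for CHST11. For ARPP21 it gave 9.33 and 9.50 in ORM cells and 9.24 and 9.97 in control cells, and for CHST11 it gave 11.63 and 11.57 in ORM cells and 11.45 and 11.64 in control cells. A correlation over 4 arrays is a description and carries no test. The nearest probe set, that of ARPP21, had log2 signals of 3.97 and 3.96 in ORM cells and 4.60 and 7.12 in control cells. PDK1, a kinase that restrains pyruvate dehydrogenase, had 7.61 and 7.43 in ORM cells and 7.60 and 9.83 in control cells. All 5 were highest in control replicate 2, which follows from their selection for likeness to PFKFB4. They differed in how far control replicate 1 lay from the ORM arrays. The ORM mean was at -0.63 from that array for ARPP21 and at -0.08 for PDK1. BNIP3 and PDK1 are also in the hypoxia-induced list, which was written with these results known.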

How the data were processed

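RNA of 2 ORM and 2 control samples was measured on 1 Clariom S array each. The deposited values are log2 signals per probe set that the authors normalized, and the submitters' notes list Transcriptome Analysis Console and RMA, with versions not given in the sources used here. The RNA extraction differs between the labels and the supplementary methods. Background correction and probe summary were taken as deposited.

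All 21448 probe sets were fitted with limma 3.58.1 (lmFit and eBayes, default settings) in R 4.3.3, dim ones included. A call required an unadjusted p under 0.05 together with a fold change over 1.8, and Benjamini-Hochberg values were computed over all probe sets. The test was tried on simulated data that gave both groups the same spread. The trial therefore does not cover the wider spread of the control arrays here. The platform annotation gave 1 symbol to 17709 probe sets, and 3739 were not listed. The study's supplementary list of altered genes was used for names only, which also decided which unlisted probe sets could be compared with PFKFB4. List genes were read by their brightest probe set.

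The members, gene lists and tests were chosen with earlier results of these data known. Named genes were all members, per list up to 4 genes past the threshold with the smallest p (2 where none passed), and the 5 profiles nearest to PFKFB4. Results were also given for CD2, KRT8, ALDOC, HK1, HK2, ERO1A and HIF1A, which fall outside this rule. A planned comparison of protein sequences was not run. Alternatives were quantile normalization, median centring, a log2 signal of at least 5, the methods' t-test, limma with trend and robust settings, a replicate block, other fold limits, averaging the probe sets of each gene and each array left out in turn.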

Additional observations from a re-analysis of the deposited data

How the results depend on the processing

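PFKFB4 stayed lower in ORM cells under every alternative run, with log2 fold changes of -3.34 to -1.04 when single arrays were left out. It kept its side of the threshold under quantile normalization, median centring, the signal filter and limma with trend and robust settings. The value was -2.20 by the methods' t-test, where it was not called, and it was also not called without ORM replicate 1 or without ORM replicate 2. The count of members past the threshold was 0 by the methods' t-test and 0 to 2 with single arrays left out. It was 2 without control replicate 1 (PFKFB4 lower, TIGAR higher in ORM cells) and 0 without ORM replicate 1, and without ORM replicate 2 it was 1, FBP1 and not PFKFB4. Control replicate 2 was left out of the count of members whose groups do not overlap after the data had been seen, which gave 8 members (5 higher and 3 lower in ORM cells) in place of 4, or 8 of 9, against 75.1% of all probe sets. Without it PFKFB2, PFKFB3 and PFKL had higher means in ORM cells. Without ORM replicate 2 the directions of PFKFB1, at 0.09, and PFKL, at 0.01, turned.

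Over all probe sets, 151 calls (91 higher and 60 lower) became 941 at 1.5-fold, 68 at 2-fold, 49 by the methods' t-test and 100 to 1009 with single arrays left out, the most without control replicate 1. Median centring gave 165 calls, 123 higher and 42 lower. The glycolysis list gave 1 call (PGAM4) at 1.5-fold in place of 0 and 0 to 2 with single arrays left out. For the hypoxia-induced list the 1 call became 0 after median centring, 0 at 2-fold, 0 by the methods' t-test, 2 at 1.5-fold, 2 with trend and robust settings, 2 when the probe sets of each gene were averaged, 3 after quantile normalization and 0 to 11 with single arrays left out. The 11 were found without control replicate 1, and 0 in each of the other cases. The causes were not tested. With 2 arrays in each group, precision is limited by their number.

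ORM and control arrays share replicate numbers. Same-numbered arrays deviated from their group means with a correlation of 0.09 over probe sets, from 2 pairs, and nothing in the labels ties them. With the number as a block, the calls were 162 of all probe sets, 1 member (PFKFB4, log2 fold change -2.20), 1 glycolysis gene, 0 pentose phosphate genes and 3 hypoxia-induced genes.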
